A study of Mus musculus with 16 samples.

Results

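The response to doxycycline that leukaemia cells of the bone marrow and of the spleen had in common was described over 12 of the 16 libraries of the series. The doxycycline arm held 6 libraries, 3 from bone marrow and 3 from spleen, and the control arm held 6, again 3 from each tissue. All were chosen by their labels. The cells were mouse leukaemia cells expressing the fusion gene CBFB::MYH11 and GFP, a fluorescent protein. Per the design text they carried a hairpin RNA (shRNA) against MYH11 that doxycycline switches on, grew in congenic recipient mice, and were sorted for GFP before RNA sequencing. The doxycycline mice drank 3 mg/ml doxycycline in 5% sucrose for 7 days, and the control mice drank 5% sucrose alone. The labels describe both doxycycline groups as shRNA-transduced cells and both control groups only as fusion-expressing cells, whereas the design text says that cells of both arms were transduced. No group used here received doxycycline without the hairpin, so drug and knockdown cannot be told apart as sources of a change. The strain and age of the mice, the promoter of the hairpin and the number of leukaemia clones are not given in the sources used here. Whether the numbered replicates were separate animals is not stated, and p-values below therefore cover only the spread among these libraries, part of which may be technical. The 4 libraries of secondary disease were not used here.

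CBFB is the partner that steadies RUNX proteins on DNA, and the inversion of chromosome 16 in human acute myeloid leukaemia joins it to a smooth muscle myosin. The fusion protein still binds RUNX1 and is known to hold blood progenitors in an immature state. RUNX1 and GATA1 are transcription factors of blood cells, and the red cell line that GATA1 and KLF1 direct makes haemoglobin, haem and a membrane skeleton of its own. Spleen and bone marrow both make red cells in the mouse.

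Total expected counts per library ran from 21.84 to 39.42 M, so that counting error weighs mainly on genes at a few counts. Levels are CPM, expected counts scaled to the size of each library after TMM, and do not correct for gene length. Cbfb (ENSMUSG00000031885, chromosome 8, 105170674 to 105217989, plus strand, GRCm38) had 90.3, 88.9 and 95.1 CPM in bone marrow doxycycline libraries, against 124, 135 and 118 CPM in bone marrow controls. In spleen, Cbfb had 118, 54.1 and 122 CPM with doxycycline, against 143, 124 and 131 CPM in controls. Its log2 fold change, doxycycline over control in both tissues, was −0.45 ± 0.16 (± SE; edgeR adjusted p = 0.0873), below the threshold of 0.05 only without spleen doxycycline replicate 1 (−0.52, adjusted p = 0.0315). Counts of Cbfb take in the normal allele and mouse Myh11 had at most 0.35 CPM in any library, so neither gene measures the fusion. Kit, the stem cell factor receptor of immature blood cells, was read in every library at 62.6 to 266 CPM.

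One library stood apart before any gene was looked at singly. Spleen doxycycline replicate 1 had a mean correlation of log2 CPM of 0.973 with the spleen controls and of 0.919 with the other spleen doxycycline libraries. Replicate 2 also had 0.919 with the other spleen doxycycline libraries, but 0.911 with the spleen controls. On the first principal component, with 47.3% of the variance, replicate 1 lay at −56.73, beyond the controls (−50.89 to −31.48), while the other 5 doxycycline libraries lay between 25.25 and 96.36. The ends of that range were spleen doxycycline replicates 3 and 2, which thus also differed from each other. Haemoglobin genes took 0.529% of the counts of replicate 1, against 3.73 to 7.15% in the other doxycycline libraries and 0.213 to 0.469% in controls. Counts are given below with and without this library, and a fold change is given without it where leaving it out ends a call or moves a called fold by over 1.5 times. What sets it apart was not tested.

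**Figure D1:**
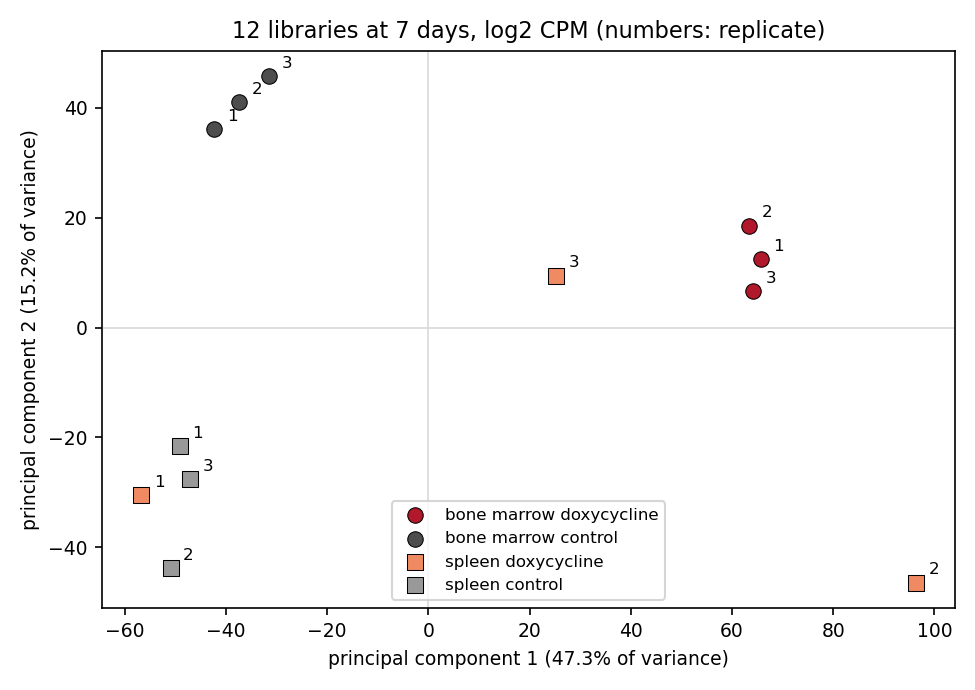
The 12 libraries on the first and second principal components of log2 CPM, coloured by group and numbered by replicate. Doxycycline libraries lie on the right at 25.25 to 96.36 on the first component, except spleen doxycycline replicate 1, which lies at −56.73 beside the spleen controls.

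Over both tissues, doxycycline raised 1240 of 14140 genes tested (8.77%) and lowered 648 (4.58%), at a Benjamini-Hochberg adjusted p under 0.05 in edgeR's quasi-likelihood test. The rises were the larger changes. Of the higher genes, 603 rose at least 2-fold and 275 at least 4-fold, while 215 of the lower genes fell at least 2-fold and 62 at least 4-fold. The median log2 fold change was 0.97 among higher genes and −0.722 among lower genes, beside 0.0113 over all genes tested. Without spleen doxycycline replicate 1 the same model called 2245 genes higher (15.6% of 14429) and 2145 lower (14.9%). Those calls took in 1237 of the 1240 higher genes and 647 of the 648 lower genes. Leaving out any 1 bone marrow library, or spleen control replicate 1 or 3, cut the calls to between 1100 and 1257. Without spleen control replicate 2 they were 1304. As a further description, genes were counted whose CPM of doxycycline and control libraries overlapped neither in bone marrow nor in spleen. Of all genes tested, 4.92% lay wholly above the controls in each tissue and 4.47% wholly below. Among the called genes these were 608 of the higher (49%) and 450 of the lower (69.4%), and 1053 and 565 once spleen doxycycline replicate 1 was set aside. The calls used the same values, so these counts are no separate evidence. Fewer libraries also overlap less easily: without that library 23.9% of all genes tested lay wholly above the controls in spleen and 24% below. With it these were 10.3% and 10.1%.

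Whether one tissue's response was found in the other can be read without a shared library, by calling genes in one tissue alone. Bone marrow libraries alone called 2418 genes higher (17.9% of 13471) and 2511 lower (18.6%). In spleen doxycycline replicate 2, 85.7% of the higher genes lay above the mean of the spleen controls and 91.1% of the lower genes lay below it, where all genes tested gave 49.4% and 50.5%. Spleen doxycycline replicate 3 had 69.8% and 67.8% on those sides. Spleen doxycycline replicate 1 had 47.6% and 41.4%, against 50.7% and 49.1% of all genes tested, so it did not follow the bone marrow genes in either direction. The spleen libraries alone called 0 genes higher and 1 lower, with 1307 at an unadjusted p under 0.05 in edgeR. With replicate 1 of doxycycline left out, a choice made after seeing the data, they called 429 genes higher (3.21% of 13345) and 484 lower (3.63%). In the bone marrow, 83.6% of those higher genes had all 3 doxycycline libraries above all 3 controls, and 65.3% of those lower genes had them all below, against 23.8% and 24.4% of all genes tested.

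Which tissue changed more depended on spleen doxycycline replicate 1. With it, the change was greater in bone marrow for 1250 of the 1888 called genes, and without it for 954 of the 1887 that could then be fitted. The median log2 fold change of higher genes was 1.1 in bone marrow and 0.836 in spleen, or 1.02 in spleen without that library. That of lower genes was −0.805 in bone marrow and −0.646 in spleen, or −0.837 without it. The median log2 difference of higher genes from the tissue's control mean was 0.252, 1.24 and 0.703 for spleen doxycycline replicates 1, 2 and 3, beside a range of 1.04 to 1.11 over the bone marrow doxycycline libraries. Lower genes had medians of −0.367, −1.12 and −0.613 in those spleen libraries, beside −0.801 to −0.747 in bone marrow. Among these genes, spleen replicate 2 moved further than each bone marrow library in both directions. All of these libraries entered the calls, so these medians follow in part from the choice of genes. For genes called higher in bone marrow alone, spleen doxycycline replicates 1, 2 and 3 had medians of −0.0258, 0.62 and 0.269. For genes called lower there, they had 0.0995, −0.91 and −0.246. Of the called genes, 1884 had the same sign in both tissues, as the additive model favours. An edgeR test of the difference between tissues called 23 genes (0.163%), and 0 of the 1888 were among them, while DESeq2 called 387 genes for a difference and limma-voom 39. That count rested on single libraries: it was 1914 without spleen doxycycline replicate 2, 211 without replicate 1 and 125 without replicate 3, and 0 to 8 without any 1 of the other 9 libraries. At an unadjusted p under 0.05 for the difference stood 209 of the called genes (11.1%), against 12.2% of all genes tested. That a gene misses this test does not show that both tissues responded alike. Of all called genes, 4 had no count in the bone marrow libraries, so their change is the spleen's alone.

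**Figure D2:**
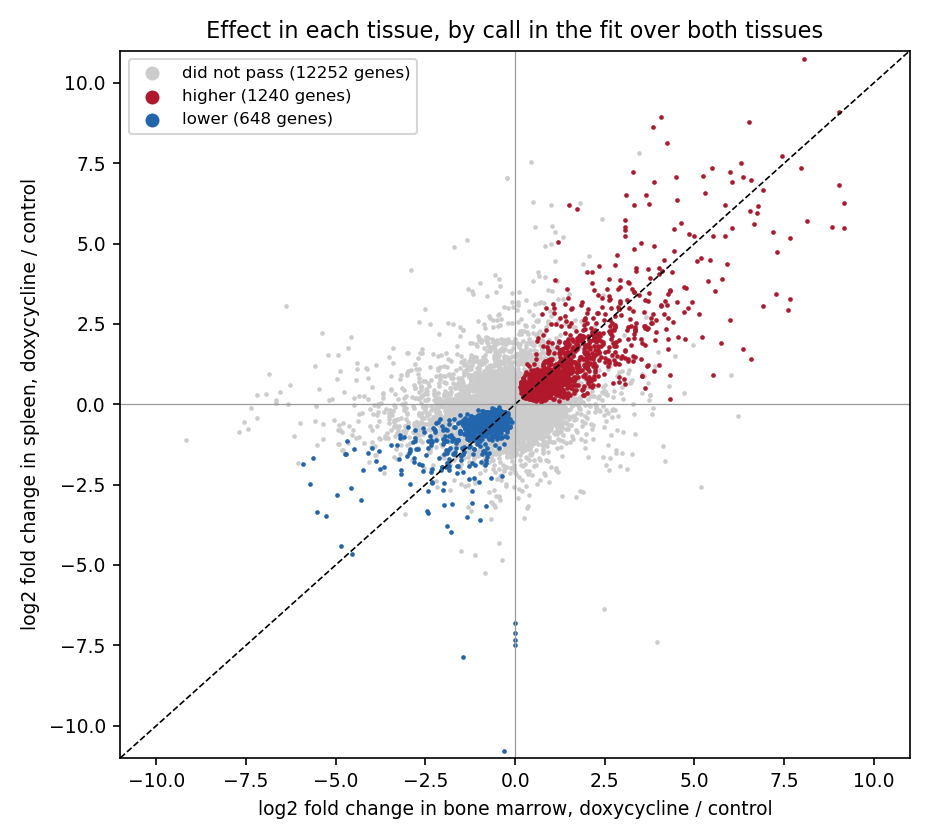
Log2 fold change (doxycycline over control) in bone marrow on the horizontal axis and in spleen on the vertical axis for 14140 genes, coloured by the call over both tissues; the dashed line marks equal change. The 1240 higher genes fill the upper right and the 648 lower genes the lower left, and the highest values belong to genes that rose.

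Many red cell genes rose over both tissues, although fewer stood clear of the controls in each. Of 8 tested haemoglobin genes, 6 rose, 0 fell and 2 did not pass, with a median log2 fold change of 3.38. Haem synthesis had 14 of 16 genes higher and 0 lower (median 1.44). Red cell membrane and enzyme genes had 20 of 29 higher and 0 lower (median 1.25), and iron handling had 6 of 14 higher and 0 lower (median 0.563). Without spleen doxycycline replicate 1 these counts were 6, 14, 21 and 8 higher, with 1 haemoglobin gene and 1 membrane or enzyme gene lower. Doxycycline libraries lay wholly above the controls of both tissues for 3 of the 8 haemoglobin genes, 11 of the 16 of haem synthesis and 10 of the 29 of membrane and enzymes. Of all genes tested, 4.92% lay so. Called higher were 8.77% of all genes tested and called lower 4.58%, or 15.6% and 14.9% without spleen doxycycline replicate 1. In bulk RNA, a change in the number of red cell precursors among the sorted cells and a change in red cell RNA per cell cannot be told apart.

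Hbb-bs, an adult β-globin gene, had 14340, 17490 and 17910 CPM in bone marrow doxycycline libraries, against 306, 186 and 665 CPM in bone marrow controls. In spleen, Hbb-bs had 588, 27100 and 12500 CPM with doxycycline, against 359, 787 and 662 CPM in controls. The first spleen doxycycline library lay among the controls, and each of the other 5 doxycycline libraries lay far above them. Its log2 fold change was 4.95 ± 0.74 (edgeR adjusted p = 0.0032), or 5.26 without that library. The α-globin gene Hba-a2 had 16610, 23030 and 21140 CPM in bone marrow doxycycline libraries, against 949, 698 and 1390 CPM in bone marrow controls. In spleen, Hba-a2 had 1969, 28570 and 14900 CPM with doxycycline, against 888, 1627 and 1405 CPM in controls, so that here even replicate 1 was the highest of the 4, by a small margin. Hba-a2 rose by 3.93 ± 0.52 on the log2 scale and its paralogue Hba-a1 by 2.83 ± 0.37. Reads of paralogous globin genes can be shared by the counting, so the split between Hba-a1 and Hba-a2, or Hbb-bs and Hbb-bt, is uncertain. The embryonic β-type genes Hbb-bh1 (−0.67) and Hbb-y (−0.32) did not pass the test.

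Alas2, the first enzyme of haem synthesis in red cells, had 626, 805 and 721 CPM in bone marrow doxycycline libraries, against 17.6, 12 and 49.2 CPM in bone marrow controls. In spleen, Alas2 had 56.9, 1054 and 462 CPM with doxycycline, against 28.6, 53.2 and 46.2 CPM in controls. The groups did not overlap in either tissue, although replicate 1 of spleen doxycycline cleared the highest control by only a few CPM. The log2 fold change was 4.19 ± 0.63 (edgeR adjusted p = 0.00335) and 4.50 without that library. Genes of later steps rose less: Alad by 2.00, Uros by 2.32, Urod by 1.25, Cpox by 2.06, Ppox by 1.14 and Fech, which inserts the iron, by 1.90. The mitochondrial carrier genes Slc25a37, for iron (3.47), and Slc25a38, for glycine (1.44), also rose. Tmem14c (0.17) was among the genes that did not pass.

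Among membrane genes, Slc4a1, the anion exchanger of the red cell, had 1591, 1548 and 1768 CPM in bone marrow doxycycline libraries, against 105, 49.3 and 221 CPM in bone marrow controls. In spleen, Slc4a1 had 193, 4956 and 1028 CPM with doxycycline, against 61.4, 149 and 124 CPM in controls. Epb42, which ties that exchanger to the membrane skeleton, rose by 3.47 ± 0.57 on the log2 scale. Rhag, of the Rh complex, had 118, 77.4 and 124 CPM in bone marrow doxycycline libraries, against 1.6, 1.08 and 4.43 CPM in bone marrow controls. In spleen, Rhag had 2.52, 408 and 105 CPM with doxycycline, against 4.07, 5.44 and 4.23 CPM in controls, replicate 1 lying below the controls. Rhag rose by 5.36 ± 0.88 on the log2 scale. Of the enzymes, Bpgm, which makes the 2,3-bisphosphoglycerate that loosens oxygen from haemoglobin, rose by 2.28 ± 0.28 and the biliverdin reductase gene Blvrb by 1.30 ± 0.17. Sptb (0.43), Gypc (0.20), Car1 (0.33), Car2 (0.63) and Aqp1 (−0.36) did not pass, so the list did not move as a whole.

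Of 14 iron genes, 6 rose and 8 did not pass, and genes of uptake, storage and export were among those called. The uptake receptor Tfrc had 611, 585 and 562 CPM in bone marrow doxycycline libraries, against 145, 163 and 133 CPM in bone marrow controls. In spleen, Tfrc had 106, 1253 and 576 CPM with doxycycline, against 242, 234 and 215 CPM in controls, replicate 1 lying below the controls and the other replicates far above. Tfrc kept its call in 11 of 12 refits that each left out 1 library. It missed the threshold without spleen doxycycline replicate 2 (edgeR adjusted p = 0.0537). The ferritin chains that store iron rose, Ftl1 by 1.19 ± 0.19 and Fth1 by 0.72 ± 0.16, as did the exporter Slc40a1 by 3.07 ± 0.61 and the haem oxygenase Hmox1 by 1.40 ± 0.30. The iron-response regulators Ireb2 (−0.03) and Aco1 (1.36) and the ferritin receptor of autophagy Ncoa4 (0.11) did not pass.

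**Figure D3:**
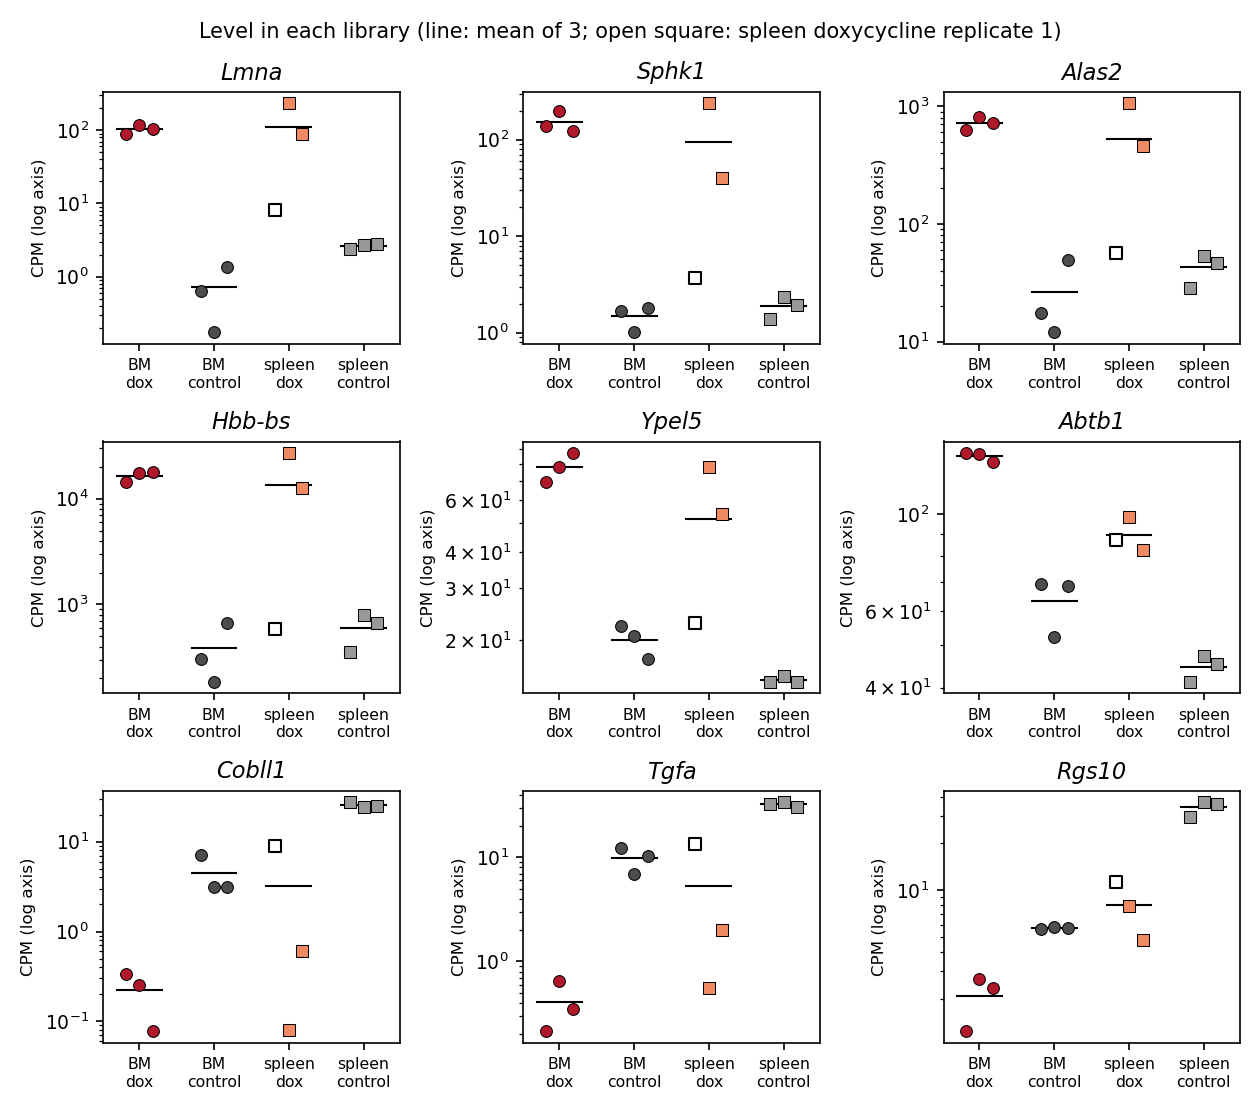
CPM (log axis) of 9 genes in each of the 12 libraries, by tissue and treatment, with the mean of 3 as a line and spleen doxycycline replicate 1 as an open square. Lmna, Sphk1, Alas2 and Hbb-bs are high in 5 of 6 doxycycline libraries and near the controls in the open square, Abtb1 is higher in all 6, and Cobll1, Tgfa and Rgs10 are lower.

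Sequence just before the RefSeq start of called genes was read, for 936 of the 1240 higher genes, 494 of the 648 lower genes and 9895 of all genes tested. The window was the 250 bases before the annotated start, searched on both strands for 3 motifs. TGTGGT stands for the site that RUNX proteins prefer. The letters searched for GATA factors were AGATAA, the usual erythroid form. For AP-1, the dimer of FOS and JUN proteins, they were TGAGTCA. RUNX letters stood in 13% of windows of higher genes and 7.49% of lower genes, against 11.2% of all genes tested. GATA letters stood in 7.16% and 4.86%, against 6.28%, and AP-1 letters in 3.31% and 2.43%, against 2.96%. The windows of lower genes were richer in G and C, with a median of 64%, against 59.6% both among higher genes and among all genes tested. These shares are descriptions without a test, and a match is not a bound site. The windows below were picked because they hold a motif. They belong to 3 red cell genes with GATA letters, to a gene that rose by a like amount in every doxycycline library (Bcat2) and to the gene with the greatest fall among those named by rule (Cobll1), both with RUNX letters. Other red cell genes had no GATA letters in their window: Hba-a1, Hba-a2, Bpgm and Blvrb held none of the 3 motifs, and Urod, Rhag and Klf1 held RUNX letters only. Alas2 is read at chrX:150547167-150547416, plus strand, Hbb-bs at chr7:103827929-103828178, minus strand, Epb42 at chr2:121036878-121037127, minus strand, Bcat2 at chr7:45569903-45570152, plus strand, and Cobll1 at chr2:65238792-65239041, minus strand, all on GRCm38.p6 and 5′ to 3′ along the gene. RefSeq and GENCODE place some starts differently: only the window of Bcat2 lies wholly before the GENCODE gene, those of Alas2, Hbb-bs and Epb42 reach into it, and that of Cobll1 lies wholly inside it. Capitals mark the motif, which stands on the opposite strand in Alas2 and Epb42.
Alas2: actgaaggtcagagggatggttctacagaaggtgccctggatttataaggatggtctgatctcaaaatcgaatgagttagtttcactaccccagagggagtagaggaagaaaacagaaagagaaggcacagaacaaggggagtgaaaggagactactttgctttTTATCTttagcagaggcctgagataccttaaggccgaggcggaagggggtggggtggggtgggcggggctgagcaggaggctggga
Hbb-bs: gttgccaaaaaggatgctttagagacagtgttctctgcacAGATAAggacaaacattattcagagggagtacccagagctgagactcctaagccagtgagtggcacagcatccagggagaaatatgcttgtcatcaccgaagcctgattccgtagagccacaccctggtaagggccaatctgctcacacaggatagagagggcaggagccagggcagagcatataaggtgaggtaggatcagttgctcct
Epb42: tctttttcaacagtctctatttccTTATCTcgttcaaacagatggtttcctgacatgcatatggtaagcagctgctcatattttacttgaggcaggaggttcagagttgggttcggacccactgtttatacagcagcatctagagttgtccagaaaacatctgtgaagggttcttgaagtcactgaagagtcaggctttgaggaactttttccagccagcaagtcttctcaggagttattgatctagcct
Bcat2: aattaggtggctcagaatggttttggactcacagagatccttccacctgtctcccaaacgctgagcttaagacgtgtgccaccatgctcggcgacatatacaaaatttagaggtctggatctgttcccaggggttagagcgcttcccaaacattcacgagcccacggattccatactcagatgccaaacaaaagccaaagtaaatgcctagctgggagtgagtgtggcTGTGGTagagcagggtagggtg
Cobll1: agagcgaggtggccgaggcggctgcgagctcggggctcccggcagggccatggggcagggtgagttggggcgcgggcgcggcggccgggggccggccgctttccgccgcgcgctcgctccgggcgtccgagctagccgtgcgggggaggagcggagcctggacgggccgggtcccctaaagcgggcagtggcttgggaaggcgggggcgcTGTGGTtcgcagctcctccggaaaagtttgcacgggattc

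The factors that direct blood lineages moved both ways: of 29 tested, 6 rose and 6 fell, and 9 rose and 9 fell without spleen doxycycline replicate 1. The first counts are 20.7% each way, against 8.77% higher and 4.58% lower of all genes tested. Without that library all genes tested gave 15.6% and 14.9%. Among red cell factors, Klf1, the activator of adult β-globin, rose by 1.13 ± 0.21, Nfe2 by 0.91 ± 0.15, the GATA1 partner Zfpm1 by 2.10, Gfi1b by 0.43 and Klf3, a repressor of the KLF family, by 2.11 ± 0.39. Klf1 had 225, 238 and 272 CPM in bone marrow doxycycline libraries, against 107, 96.2 and 107 CPM in bone marrow controls. In spleen, Klf1 had 139, 359 and 144 CPM with doxycycline, against 96.5, 113 and 110 CPM in controls. The arms did not overlap in either tissue. Of the ETS family, Fli1 fell by 1.54, Etv6 by 1.08, Ets2 by 0.98, Ets1 by 0.93 and Elf1 by 0.66 on the log2 scale, and Lmo2 fell by 0.37. Gata1 had a log2 fold change of 0.27 ± 0.13 (edgeR adjusted p = 0.184), with 0.62 in bone marrow and −0.07 in spleen. Gata2 had 0.73 ± 0.31 (edgeR adjusted p = 0.135), with 1.37 and 0.08. Neither GATA gene passed.

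Of 13 core binding factor genes, 0 rose and 2 fell (15.4%), Runx1 and Runx1t1, and 5 fell without spleen doxycycline replicate 1. Of all genes tested, 4.58% fell, or 14.9% without that library. Runx1 (ENSMUSG00000022952, chromosome 16, 92601466 to 92826149, minus strand, GRCm38) had 154, 144 and 145 CPM in bone marrow doxycycline libraries, against 220, 230 and 253 CPM in bone marrow controls. In spleen, Runx1 had 245, 92.4 and 103 CPM with doxycycline, against 257, 220 and 233 CPM in controls, the first library lying among the controls. Its log2 fold change was −0.68 ± 0.20 (edgeR adjusted p = 0.0435), and −0.93 without that library (edgeR adjusted p = 0.000187). Without any 1 of the other 11 libraries Runx1 missed the threshold, with an adjusted p of up to 0.0918. Runx1t1, a corepressor, fell by 0.77 on the log2 scale (edgeR adjusted p = 0.00719). Of 13 tested stem and progenitor genes, Id1 alone was called (4 fell without spleen doxycycline replicate 1), and it fell to at most 0.777 CPM in the doxycycline libraries, against 0.127 to 3.15 CPM in controls, a low level throughout, and it kept its call in 5 of 12 refits that each left out 1 library.

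Called genes were named for size of change where their log2 CPM averaged 3 or more and the arms overlapped in neither tissue, and the largest of these rises were in Lmna and Sphk1. Lmna (ENSMUSG00000028063, chromosome 3, 88480147 to 88509956, minus strand, GRCm38) encodes lamins A and C of the nuclear lamina, and had 87.8, 118 and 103 CPM in bone marrow doxycycline libraries, against 0.64, 0.174 and 1.35 CPM in bone marrow controls. In spleen, Lmna had 8.16, 232 and 88.5 CPM with doxycycline, against 2.36, 2.74 and 2.8 CPM in controls. Every doxycycline library was above every control, replicate 1 of spleen by the smallest margin. The log2 fold change was 6.16 ± 0.77 (edgeR adjusted p = 0.00218), and 6.51 without that library. Of the 16 lamina and envelope genes, Lmna alone rose, while Syne2 fell by 1.55, Lmnb2 by 0.57 and Syne3 by 0.45 on the log2 scale. These are 6.25% higher and 18.8% lower, against 8.77% and 4.58% of all genes tested. Lmnb2 lost its call when any library other than spleen doxycycline replicate 1 was left out.

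Sphk1 (ENSMUSG00000061878, chromosome 11, 116530925 to 116536674, plus strand) encodes a kinase that makes sphingosine 1-phosphate, and had 138, 196 and 123 CPM in bone marrow doxycycline libraries, against 1.68, 1.01 and 1.81 CPM in bone marrow controls. In spleen, Sphk1 had 3.66, 237 and 40.2 CPM with doxycycline, against 1.4, 2.36 and 1.94 CPM in controls. The arms did not overlap in either tissue, and the log2 fold change was 6.13 ± 0.83 (edgeR adjusted p = 0.00251). Of 27 tested sphingolipid genes, 4 rose and 3 fell (14.8% and 11.1%), 6 and 11 without spleen doxycycline replicate 1. All genes tested had 8.77% higher and 4.58% lower, or 15.6% and 14.9% without that library. The ceramidase genes Acer2 (1.34) and Acer3 (2.41) and the sphingomyelinase gene Smpd2 (0.86) rose with Sphk1. Asah1, an acid ceramidase gene, fell by 0.54, the sphingomyelin synthase gene Sgms1 by 0.44 and Ugcg, which adds glucose to ceramide, by 0.39.

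Beside 4 red cell genes, the other genes named for their rise were Fhdc1 (6.01 ± 0.87), a formin-like gene, the sialyltransferase gene St3gal2 (5.65 ± 1.04), Ypel4 (5.53 ± 0.83), Mst1 (4.46 ± 0.78), the astrocyte filament gene Gfap (4.38 ± 0.75) and the deglycating kinase gene Fn3k (4.19 ± 0.89). Each lay above all controls of its tissue in all 3 libraries of bone marrow and all 3 of spleen, as the rule for naming asked. For Fhdc1 and St3gal2 the margin in replicate 1 of spleen doxycycline was small, at 1.1 and 0.647 CPM against spleen controls of up to 0.831 and 0.525 CPM.

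Genes named for the smallest p-values, which a small spread favours, changed less, and for several of them spleen doxycycline replicate 1 stood with the other doxycycline libraries. Abtb1 (ENSMUSG00000030083, chromosome 6, 88835914 to 88841984, minus strand, GRCm38), which encodes a BTB-domain protein, had 138, 137 and 132 CPM in bone marrow doxycycline libraries, against 69.3, 52.2 and 68.3 CPM in bone marrow controls. In spleen, Abtb1 had 87.2, 98.6 and 82.8 CPM with doxycycline, against 41.3, 47.3 and 45.5 CPM in controls. All 6 doxycycline libraries were above all controls of their tissue, and the log2 fold change of 1.05 ± 0.09 had an edgeR adjusted p of 0.000781. Ddit3, which encodes the stress factor CHOP, had 50.8, 67.8 and 56.6 CPM in bone marrow doxycycline libraries, against 25, 18.5 and 19.7 CPM in bone marrow controls. In spleen, Ddit3 had 43.2, 51.4 and 40 CPM with doxycycline, against 19.9, 24.1 and 22.1 CPM in controls, replicate 1 standing with the others, and it rose by 1.25 ± 0.13. Bcat2, the mitochondrial aminotransferase of branched-chain amino acids, had 116, 114 and 122 CPM in bone marrow doxycycline libraries, against 81.3, 70.7 and 76 CPM in bone marrow controls. In spleen, Bcat2 had 118, 122 and 108 CPM with doxycycline, against 77.9, 77.7 and 80.4 CPM in controls, again with no overlap. Chpf, of chondroitin synthesis, rose by 1.07 ± 0.11, Zfand2b, a proteasome-linked gene, by 0.82 ± 0.09, the RAS-like gene Rit1 by 1.28 ± 0.15, the ubiquitin-conjugating gene Ube2r2 by 1.12 ± 0.13 and Ypel5 by 1.89 ± 0.23. Ypel5 was an exception in that replicate 1 of spleen doxycycline, at 22.8 CPM, lay nearer to the controls than to the other doxycycline libraries.

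The 12 lower genes named for size by the same rule were led by Cobll1, Tgfa and Aqp8. Cobll1 (ENSMUSG00000034903, chromosome 2, 65088339 to 65239403, minus strand, GRCm38), which encodes an actin-binding Cordon-bleu-like protein, had 0.341, 0.254 and 0.0775 CPM in bone marrow doxycycline libraries, against 7.17, 3.1 and 3.12 CPM in bone marrow controls. In spleen, Cobll1 had 8.84, 0.0796 and 0.602 CPM with doxycycline, against 27.3, 24 and 25 CPM in controls. Its log2 fold change was −3.50 ± 0.80 (edgeR adjusted p = 0.016), and −5.26 without spleen doxycycline replicate 1. In spleen, replicate 1 stood between the controls and the other doxycycline libraries, which had almost none.

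Tgfa (ENSMUSG00000029999, chromosome 6, 86195223 to 86275719, plus strand), a ligand of the EGF receptor, had 0.213, 0.654 and 0.349 CPM in bone marrow doxycycline libraries, against 12.4, 6.86 and 10.2 CPM in bone marrow controls. In spleen, Tgfa had 13.4, 0.557 and 1.99 CPM with doxycycline, against 32.9, 33.8 and 30.8 CPM in controls, and the arms did not overlap. It fell by 3.43 ± 0.682 on the log2 scale (edgeR adjusted p = 0.00867), and had −4.63 without spleen doxycycline replicate 1. Aqp8, a water channel gene, fell by 2.77, the eosinophil lectin gene Siglecf by 2.73, and Ehd2, of membrane caveolae, by 2.55. The flippase genes Atp10a (−2.62) and Atp8b2 (−2.15), the RAB5 regulator Rin3 (−2.25), the repressor Bhlhe40 (−2.23), Tmem158 (−2.23), the lactosylceramide synthase gene B4galt6 (−2.22) and the creatine synthesis gene Gatm (−2.02) completed the 12. Without spleen doxycycline replicate 1 the log2 fold changes were −3.92 for Aqp8, −3.68 for Ehd2, −3.33 for Atp10a, −2.80 for Atp8b2, −2.95 for Rin3, −3.22 for Bhlhe40, −3.11 for Tmem158, −3.13 for B4galt6 and −2.61 for Gatm, each larger by more than 1.5 times in fold. Some of these calls were easily lost: in 12 refits that each left out 1 library, Atp10a kept its call in 2, Bhlhe40 in 3, Siglecf in 8, Rin3 in 9, B4galt6 and Gatm in 10 each, and Atp8b2 in 11.

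The lower genes with the smallest p also changed less. Nin, a gene of microtubule anchoring at the centrosome, had 52.2, 53 and 44.2 CPM in bone marrow doxycycline libraries, against 103, 98.7 and 110 CPM in bone marrow controls. In spleen, Nin had 61.6, 49.1 and 61.9 CPM with doxycycline, against 93.3, 94.8 and 94.6 CPM in controls, with all 3 below the controls. It fell by 0.88 ± 0.097 on the log2 scale (edgeR adjusted p = 0.00216). Rgs10, a brake on G protein signalling, had 1.24, 2.69 and 2.36 CPM in bone marrow doxycycline libraries, against 5.6, 5.82 and 5.69 CPM in bone marrow controls. In spleen, Rgs10 had 11.3, 7.88 and 4.77 CPM with doxycycline, against 29.7, 36.7 and 35.9 CPM in controls, a fall by 1.78 on the log2 scale over both tissues. Bub1b (−0.60), a spindle checkpoint kinase gene, Jade1 (−0.60), Gk (−0.89), the gene of glycerol kinase, Dip2b (−0.82), Epb41l2 (−0.67), of the band 4.1 family, and Galnt7 (−0.91), of O-glycosylation, fell by under 1 on the log2 scale.

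**Figure D4:**
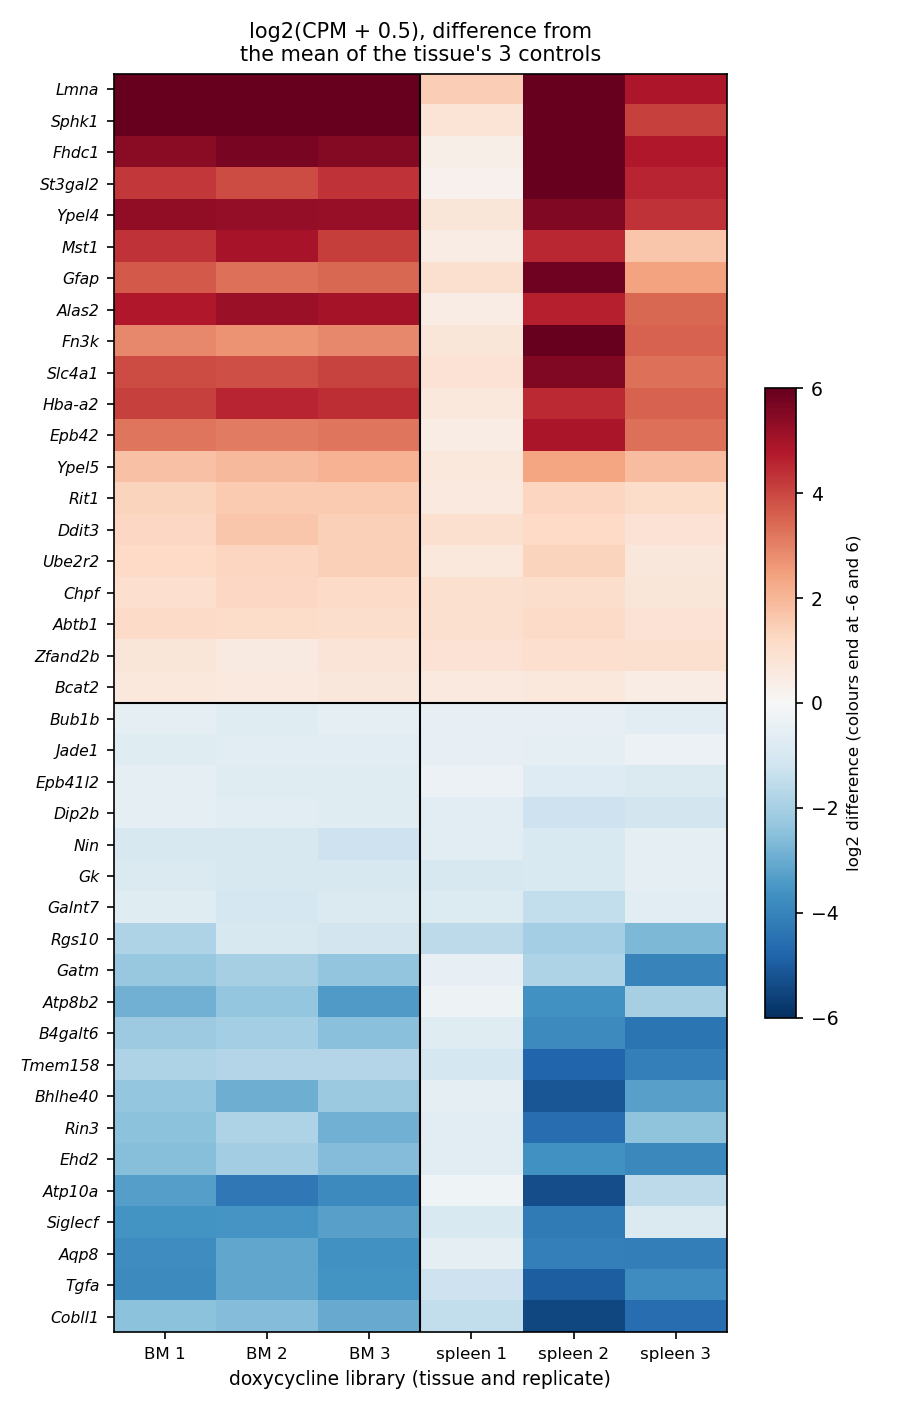
Difference of log2(CPM + 0.5) in each of the 6 doxycycline libraries from the mean of its tissue's 3 controls, for the 40 genes named for the largest change or the smallest p; red is higher, blue is lower. The column of spleen doxycycline replicate 1 is pale for the genes of largest change and close to the other columns for the genes in the middle, such as Ddit3, Abtb1, Bub1b and Nin.

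Lists of stress response genes moved in opposite directions. The integrated stress response, in which ATF4 turns on genes of amino acid supply, had 14 of 34 tested genes higher and 0 lower (median 0.56), and 21 higher and 1 lower without spleen doxycycline replicate 1. All genes tested had 8.77% higher and 4.58% lower, or 15.6% and 14.9% without that library. Trib3, a target of ATF4 and CHOP, had 32.5, 41.8 and 37.1 CPM in bone marrow doxycycline libraries, against 2.4, 3.13 and 5.36 CPM in bone marrow controls. In spleen, Trib3 had 6.99, 45.5 and 15.5 CPM with doxycycline, against 4.37, 4.24 and 4.82 CPM in controls. It rose by 2.84 ± 0.42 (edgeR adjusted p = 0.0032), with no overlap in either tissue. Atf4 itself rose by 0.47, Atf5 by 2.07, Nupr1 by 3.88, Chac1 by 3.01, Cth by 3.07, the asparagine synthetase gene Asns by 1.88 and the tRNA synthetase genes Aars, Sars and Gars by 0.76, 0.68 and 0.29. The serine synthesis genes Psat1 (−0.04), Phgdh (0.05) and Psph (0.16) and the transporters Slc7a5 (−0.09) and Slc3a2 (−0.30) did not pass.

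The unfolded protein response of the endoplasmic reticulum had 0 of 24 genes higher and 9 lower (37.5%, median −0.268), and 12 lower without spleen doxycycline replicate 1. All genes tested had 8.77% higher and 4.58% lower, or 15.6% and 14.9% without that library. The sensors of this response, Ern1 (−0.66) and Eif2ak3 (−0.27), fell, as did the chaperone and disulphide genes Hyou1 (−0.48), Hsp90b1 (−0.45), Dnajc3 (−0.44) and Pdia4 (−0.64) and the degradation genes Edem1 (−0.76) and Sel1l (−0.30). Ern1 had 95.4, 99.3 and 78 CPM in bone marrow doxycycline libraries, against 132, 136 and 189 CPM in bone marrow controls. In spleen, Ern1 had 105, 110 and 93.7 CPM with doxycycline, against 148, 151 and 161 CPM in controls, all below the controls. Hspa5 (−0.16), the main chaperone, and Xbp1 (−0.06) did not pass. Of 13 cytosolic heat shock genes, Ahsa1 (0.38) and Hspa1b (2.52) rose, or 15.4% against 8.77% of all genes tested. Ahsa1 kept its call in 11 of 12 refits and Hspa1b in 4. Hspa1b was highest, at 242 CPM, in spleen doxycycline replicate 1, and without it missed the threshold (1.68, edgeR adjusted p = 0.0906).

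Autophagy and lysosome genes had 13 of 25 higher and 1 lower (median 0.323), and oxidative stress genes 9 of 20 higher and 0 lower (median 0.418). Without spleen doxycycline replicate 1 the first list had 13 higher and 3 lower and the second 10 higher and 0 lower. All genes tested had 8.77% higher and 4.58% lower, or 15.6% and 14.9% without that library. Ctsb, a lysosomal protease gene, had 1237, 1702 and 1487 CPM in bone marrow doxycycline libraries, against 207, 222 and 258 CPM in bone marrow controls. In spleen, Ctsb had 286, 1678 and 1008 CPM with doxycycline, against 214, 242 and 229 CPM in controls, and it rose by 2.40 ± 0.33 (edgeR adjusted p = 0.00261). The membrane gene Lamp1 rose by 0.94, Ctsd by 0.91, Wipi1 by 1.58, the kinase gene Ulk1 by 0.89, the lysosomal regulator Tfeb by 0.73 and the autophagosome gene Map1lc3b by 0.59. Atg9b fell by 1.05, while Ctsl (−0.16), Hexa (−0.11) and Lamp2 (−0.07) did not pass. Of the oxidative stress list, Srxn1 (1.64), the glutathione synthesis genes Gclm (1.27) and Gss (0.89), G6pdx (0.61) and Prdx2 (1.24), an abundant peroxiredoxin of red cells, rose. Prdx2, Gpx1, Cat and Hmox1 also stand in the red cell or iron lists, so these counts are not independent. Nfe2l2 (0.09) and its target Nqo1 (0.10) did not pass.

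Receptors of red cell and cytokine signals rose in part. Of 28 cytokine receptor and STAT feedback genes, 7 rose and 2 fell (25% and 7.14%), or 8 and 6 without spleen doxycycline replicate 1. The shares of all genes tested were 8.77% and 4.58%, or 15.6% and 14.9% without that library. The interleukin 4 receptor gene Il4ra had 80.8, 122 and 94.1 CPM in bone marrow doxycycline libraries, against 11.7, 13.1 and 13.6 CPM in bone marrow controls. In spleen, Il4ra had 18.6, 52.8 and 48.2 CPM with doxycycline, against 13.8, 15.2 and 15.1 CPM in controls, and it rose by 2.20 ± 0.32 (edgeR adjusted p = 0.0032). The kinase gene Pim1, a STAT5 target, rose by 2.04 ± 0.41 and the feedback gene Socs3 by 1.65, while Pim3 fell by 0.56 and Jak1 by 0.28. Epor, the erythropoietin receptor gene, rose by 0.74 ± 0.21 (edgeR adjusted p = 0.0361) but kept its call in only 3 of the 12 refits that each left out 1 library, with an adjusted p of at most 0.0834. Of 11 receptor tyrosine kinase genes, 0 rose and Igf1r fell by 0.87, with 1 higher and 3 lower without that library. Tek did not pass (edgeR adjusted p = 0.107): it had 7.37, 7.7 and 6.93 CPM in bone marrow doxycycline libraries, against 113, 124 and 124 CPM in bone marrow controls. In spleen, Tek had 107, 1.16 and 75.1 CPM with doxycycline, against 102, 93.7 and 97.7 CPM in controls, a range wider than that of any control group.

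Early response and inflammatory genes were called lower rather than higher in several lists, against 4.58% lower and 8.77% higher of all genes tested, or 14.9% and 15.6% without spleen doxycycline replicate 1. Of 21 immediate early genes, 1 rose (Btg2, 2.03) and 2 fell (Egr2, −2.64, and Fosl2, −1.50), or 4.76% and 9.52%, and 2 rose and 7 fell without that library. The list's median log2 fold changes had opposite signs in the tissues, −1.46 in bone marrow and 0.307 in spleen. Over both tissues 18 of the 21 genes were negative (median −0.64). The list's median log2 CPM in spleen was 3.65, 1.71 and 3.2 with doxycycline, against 3.86, 3.91 and 4.14 in controls. Egr2, at −3.83 without that library, kept its call in 3 of 12 refits that each left out 1 library. Feedback genes of MAP kinase signalling had 0 of 14 higher and 3 lower (21.4%), Spred1 (−1.02), Dusp7 (−0.94) and Spry2 (−0.72), the last kept in 2 of 12 refits. Of 19 NF-kB genes, 0 rose and 2 fell (10.5%), Rel (−1.70) and Tnf (−1.97), with 8 lower without that library, and Tnf, at −2.71 without it, was kept in 2 of 12 refits. MHC class I presentation had 0 of 18 higher and 1 lower (5.56%), Erap1 (−0.44), and 10 lower without that library (median −0.456 with it). Interferon response genes split, with 2 of 45 higher and 2 lower, shares no greater than those of all genes tested, and 7 higher and 2 lower without that library. Its median was 0.487 in bone marrow and −0.654 in spleen. Ifit1 rose by 3.83 ± 0.73 and Ifi27 by 1.34 ± 0.26, while Ifit2 fell by 0.95 and Irf1, kept in 4 of 12 refits, by 0.91. Ifit1 had 51.1, 67.1 and 59.9 CPM in bone marrow doxycycline libraries, against 1, 3.06 and 3.75 CPM in bone marrow controls. In spleen, Ifit1 had 1.91, 100 and 25 CPM with doxycycline, against 4.5, 4.58 and 4.94 CPM in controls, replicate 1 lying below the controls.

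Genes of DNA replication, mitosis, ribosomes and the respiratory chain were called at shares below those of all genes tested, and several of these lists had medians of opposite sign, −0.134 in bone marrow and 0.323 in spleen for S phase and −0.214 and 0.164 for mitosis. Median log2 CPM of S phase genes in spleen was 7.12, 7.57 and 7.02 with doxycycline, against 6.99, 7.01 and 7.09 in controls. For mitosis it was 6.43, 7.22 and 6.8, against 6.78, 6.65 and 6.69. Spleen doxycycline replicate 2 stood highest in both lists. Of 35 genes of DNA replication and S phase, E2f2 alone rose (1.27 ± 0.27) and 0 fell, and of 32 mitosis genes Bub1b alone fell. S phase had 4 higher and 1 lower without spleen doxycycline replicate 1. Mki67, the proliferation marker, had a log2 fold change of 0.13 ± 0.21 (edgeR adjusted p = 0.727). Of 51 cytosolic ribosomal protein genes edgeR called 0 (median 0.0958), with 3 at an unadjusted p under 0.05, while DESeq2 called 2 and limma-voom 1. Of 13 genes of the mitochondrial genome each of these tools called 0, and 0 had an unadjusted p under 0.05 in edgeR. Respiratory chain genes of the nucleus had 2 of 33 higher, Ndufs3 (0.57) and Ndufv1 (0.37), the second kept in 4 of 12 refits that each left out 1 library. The MYC and ribosome biogenesis list had 3 of 35 higher: Mxd1 (1.56), which opposes MYC, the iron receptor Tfrc, and Polr1c (0.34), kept in 4 of 12, and without spleen doxycycline replicate 1 the list had 6 higher and 6 lower. Myc had −0.53 ± 0.17 (edgeR adjusted p = 0.0576), and passed without spleen doxycycline replicate 1 (−0.67, adjusted p = 0.00641). The D cyclins went opposite ways: Ccnd3 rose by 1.47 ± 0.36 and Ccnd2 fell by 1.01, beside a rise of Cdkn1b by 0.57 ± 0.13 and a fall of Cdk6 by 0.82 on the log2 scale. Ccnd3 had 431, 560 and 456 CPM in bone marrow doxycycline libraries, against 150, 104 and 166 CPM in bone marrow controls. In spleen, Ccnd3 had 309, 937 and 149 CPM with doxycycline, against 191, 215 and 223 CPM in controls, where replicate 3 lay below the controls. Ccnd3 kept its call in 9 of 12 refits and Cdk6 in 10, and the list of 14 CDK inhibitors and G1 regulators, with 2 higher and 2 lower (14.3% each), had 4 and 3 without spleen doxycycline replicate 1. Among all genes tested 8.77% were higher and 4.58% lower, or 15.6% and 14.9% without that library.

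Of 26 p53 targets, Sesn2 (1.16), shared with the stress response list, and Btg2 (2.03) rose, Sesn2 keeping its call in 2 of 12 refits that each left out 1 library. In the BCL2 family, Bcl2l1, the gene of the survival protein BCL-XL that red cell precursors rely on, rose by 0.90 ± 0.20, Bid by 0.50 ± 0.12 and Bik by 2.24 ± 0.50, while Bmf fell by 2.67. Bid kept its call in 8 of 12 refits and Bmf, at −3.91 without spleen doxycycline replicate 1, in 2. Bcl2l1 had 218, 232 and 266 CPM in bone marrow doxycycline libraries, against 107, 77.1 and 97.5 CPM in bone marrow controls. In spleen, Bcl2l1 had 159, 300 and 173 CPM with doxycycline, against 145, 161 and 156 CPM in controls, replicate 1 lying among the controls. Of 25 histone modifier genes, Hdac3 alone was called (0.25), in the full set and in 2 of 12 refits. Shares higher among p53 targets (7.69%) and histone modifiers (4%) were below the 8.77% of all genes tested. Without spleen doxycycline replicate 1, p53 targets had 4 higher and 2 lower, BCL2 genes 4 and 4, and histone modifiers 2 and 3. Of all genes tested, 15.6% were then higher and 14.9% lower.

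Sugar and sterol genes had negative medians. Of 32 glycolysis and hypoxia genes, 3 rose and 5 fell (median −0.302), and 3 and 12 without spleen doxycycline replicate 1. With all libraries these are 9.38% and 15.6%, against 8.77% higher and 4.58% lower of all genes tested. Without that library all genes tested had 15.6% and 14.9%. Slc2a1, the glucose carrier gene, had 268, 342 and 302 CPM in bone marrow doxycycline libraries, against 85.3, 90 and 104 CPM in bone marrow controls. In spleen, Slc2a1 had 98.3, 695 and 216 CPM with doxycycline, against 97.7, 108 and 101 CPM in controls, with replicate 1 among the controls, and it rose by 1.71 ± 0.35. P4ha1 (1.33) and Pdk1 (0.89) rose with it. Hk2 (−0.77), the phosphofructokinase gene Pfkp (−0.88), Vegfa (−0.73), the lactate carrier gene Slc16a3 (−0.61) and Hif1a (−0.51) fell. Cholesterol synthesis and sterol control had 0 of 28 genes higher and 7 lower (median −0.255), with 1 higher and 14 lower without that library. Hmgcs1, an early enzyme gene of cholesterol synthesis, had 23.9, 19.9 and 24.5 CPM in bone marrow doxycycline libraries, against 48.6, 43.5 and 40.9 CPM in bone marrow controls. In spleen, Hmgcs1 had 51, 22.4 and 46.4 CPM with doxycycline, against 56, 49 and 49.6 CPM in controls, and it fell by 0.66. Idi1 (−0.51), Cyp51 (−0.48), Insig1 (−0.38), Hsd17b7 (−0.32) and the sterol carrier gene Stard4 (−0.58) also fell, whereas Sqle (0.18) did not pass. Insig1 kept its call in 6 of 12 refits that each left out 1 library, Stard4 in 5 and Hmgcs1 in 3.

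Genes of other blood lineages were called one by one rather than as lists. Of 16 megakaryocyte genes, 2 rose (Gp9 and Tubb1) and 1 fell (F2r, −1.36), but the median was −0.868 and 6 fell without spleen doxycycline replicate 1. Gp9 stayed at or below 3.31 CPM and kept its call in 9 of 12 refits that each left out 1 library, Tubb1 in 6. Of 15 mast cell, basophil and eosinophil genes, Kit rose by 1.02 ± 0.15, Mcpt2, read at most at 0.649 CPM and in no control, was also called higher, and Fcer1a fell by 2.95. Mcpt2 kept its call in 9 of 12 refits and Fcer1a in 3. Kit had 266, 236 and 265 CPM in bone marrow doxycycline libraries, against 154, 98.7 and 126 CPM in bone marrow controls. In spleen, Kit had 104, 189 and 147 CPM with doxycycline, against 78.4, 62.6 and 76.6 CPM in controls, with no overlap. Of 17 tested genes of primary granules and early myeloid cells, Nkg7 alone was called and fell by 1.59 (list median −0.637). Of 26 adhesion and homing receptors, Esam rose above controls near 0, and Itga6 (−1.09) and Ccr1 (−1.56) fell. Esam had 0.766, 0.763 and 1.67 CPM in bone marrow doxycycline libraries, against 0.0801, 0 and 0.127 CPM in bone marrow controls. In spleen, Esam had 0.0324, 0.717 and 1.16 CPM with doxycycline, against 0.219, 0.0428 and 0.0491 CPM in controls. Esam and Itga6 each kept their call in 11 of 12 refits. Without spleen doxycycline replicate 1, the mast cell list had 4 higher and 1 lower, primary granules 0 and 2, and adhesion 2 and 7. The counts of these lists stand beside 8.77% higher and 4.58% lower of all genes tested, or 15.6% and 14.9% without that library.

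**Figure D5:**
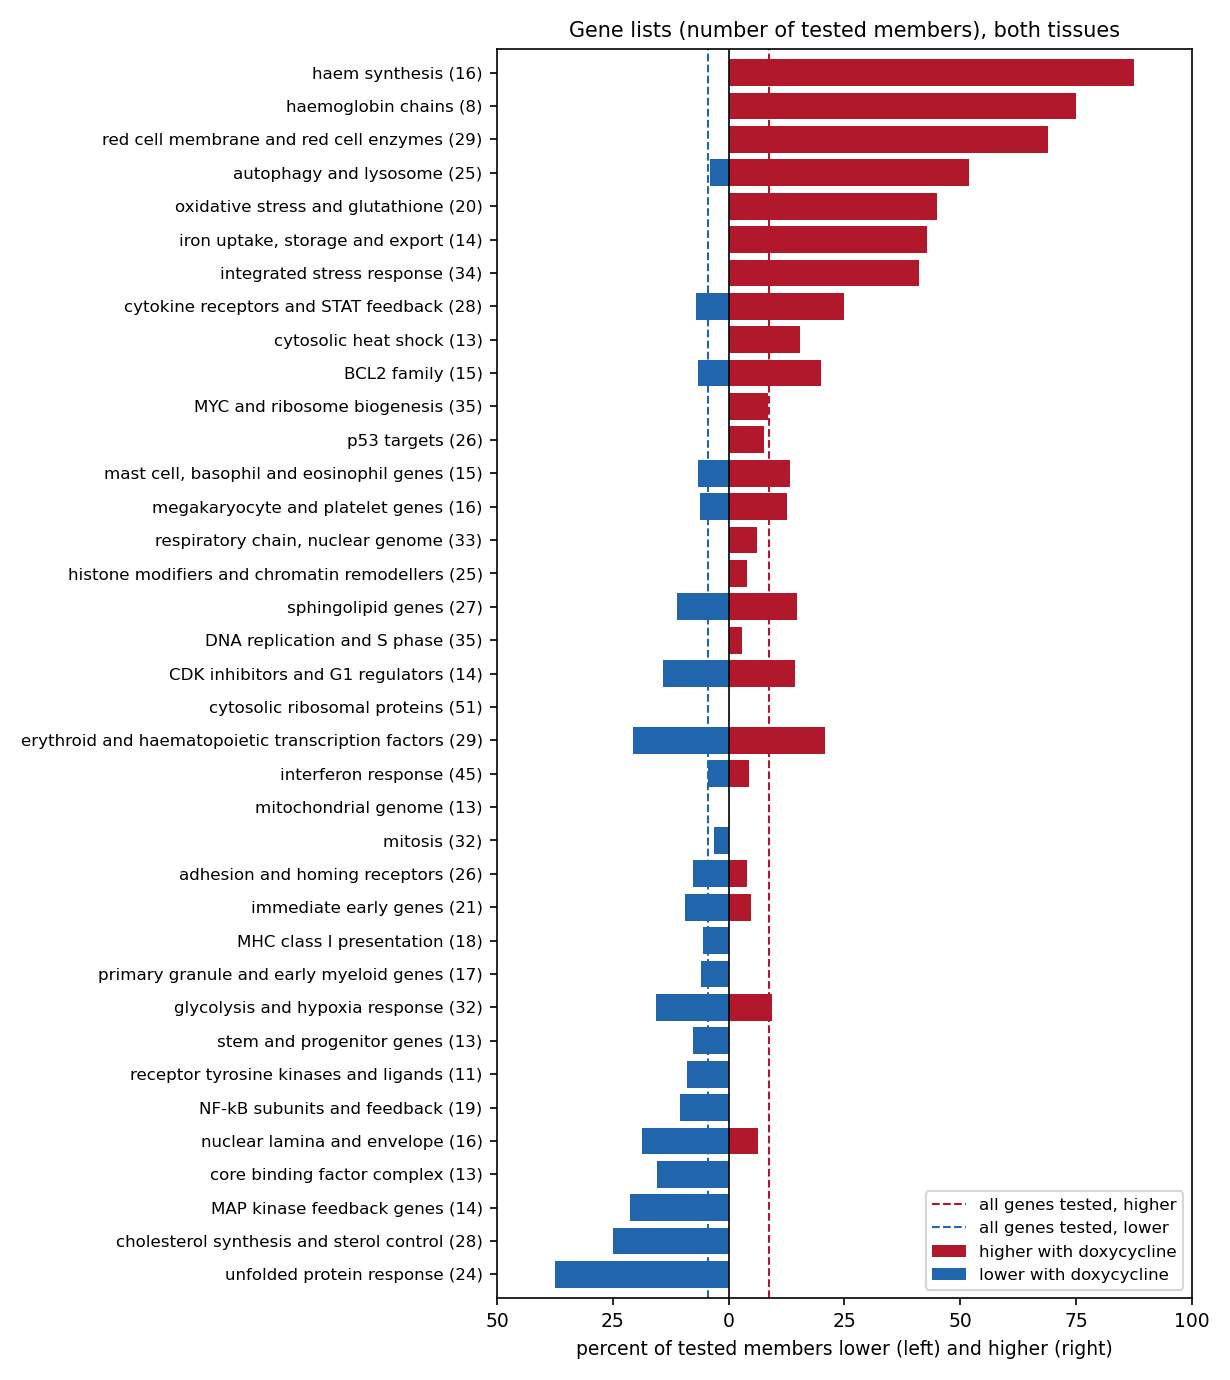
Percent of the tested members of each of 37 gene lists that were lower (bars to the left) or higher (bars to the right) with doxycycline over both tissues, with the number tested in brackets; dashed lines mark all genes tested, at 4.58% lower and 8.77% higher. Haem synthesis reaches 87.5% higher at the top, and the unfolded protein response 37.5% lower at the bottom.

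Markers of other cells of marrow and spleen were read as whole lists, since a sort can let some such cells through. Red cell markers rose in 10 of 10 tested genes (median 4.08). Their summed level was 48300 to 60100 CPM in bone marrow doxycycline libraries, against 2160 to 4200 CPM in bone marrow controls. In spleen it was 5610, 87200 and 42100 CPM with doxycycline, against 2820 to 4890 CPM in controls. Their part in the red cell results above was not tested, and these 10 genes are all members of the lists above, so they are no separate evidence. Mature neutrophil markers had 0 of 18 higher and 1 lower, with a median of −0.986, and summed to 362 to 724 CPM in bone marrow doxycycline libraries, against 982 to 1450 CPM in controls. In spleen they summed to 18.1 to 184 CPM with doxycycline, against 61.7 to 191 CPM in controls. The counts of both lists stand beside 8.77% higher and 4.58% lower of all genes tested.

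EdgeR called 0 of 17 monocyte, macrophage and dendritic cell markers, 0 of 7 T and NK cell markers and 0 of 6 endothelial and stromal markers, with 1 of each list at an unadjusted p under 0.05. DESeq2 called 1, 0 and 1 of them, and limma-voom 1, 0 and 0. The summed level of the 3 lists was 30.1 to 163, 7.03 to 16.8 and 33.7 to 252 CPM in doxycycline libraries, against 23 to 179, 7.21 to 20.7 and 112 to 224 CPM in controls. B cell and plasma cell markers had 2 of 17 higher (11.8%), Ebf1 (2.60) and Blnk (2.44), with a median of 1.45 and 7 higher and 1 lower without spleen doxycycline replicate 1. Of all genes tested 8.77% were higher, and without that library 15.6% were higher and 14.9% lower. Their sum was 69.8 to 225 CPM in doxycycline libraries, against 64.2 to 124 CPM in controls. Of 4 tested megakaryocyte markers 2 rose, and of 5 mast cell and basophil markers Fcer1a fell, while their sums were 133 to 218 and 102 to 1250 CPM with doxycycline, against 161 to 213 and 531 to 679 CPM in controls. Tpsb2, a mast cell tryptase gene, was at 0 in all 12 libraries. The part of these cells in the results above was not tested.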

How the data were processed

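RNA-seq of GFP-sorted leukaemia cells was read from the deposited table of expected counts per gene, in which 0 columns lacked a library. In the 12 libraries used here, 9.21 to 10.8% of all values per library, zeros included, were not whole numbers. Deposited TPM values per library served only to check the columns: 16 of 16 matched their own column best. Per the submitters' processing notes the tools were Trim Galore, FastQC, MultiQC, STAR and RSEM on GRCm38. The sources used here do not give the strand setting, so antisense and overlapping genes, like paralogues, are uncertain.

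Expected counts were rounded, filtered with filterByExpr (14140 of 55487 genes kept), scaled by TMM and fitted with edgeR 4.0.16 (limma 3.58.1, R 4.3.3) by robust quasi-likelihood, with tissue and treatment as additive terms over 12 libraries. Standard errors are the log2 fold change over the root of F, and p-values were adjusted by Benjamini-Hochberg over all genes tested. A fit of 4 groups gave the changes within tissues and their difference. DESeq2 1.42.0 and limma-voom were alternatives. The fitting code was tested on simulated counts.

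Genes were named per direction as the 12 called genes of largest fold change with groups that did not overlap in either tissue and the 8 of smallest p, both from genes averaging a log2 CPM of 3 or more and without predicted genes and pseudogenes. To these came up to 4 called members of smallest p per list, set anchor genes, 2 marker genes per cell type, and up to 6 genes that differed between tissues. Members of lists given by a log2 fold change alone lie outside this rule and were chosen after their values were seen. The groups, the lists and the rule were chosen with earlier results of these data known. Gene coordinates are those of GENCODE M21 (55394 identifiers matched), and promoter windows come from RefSeq. Samples were grouped by their labels. A few genes of the lists are not reported here by name, though they stay in the counts.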

Additional observations from a re-analysis of the deposited data

Results flagged for a closer look

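Of 292 groups of 6 libraries formed by the doxycycline or the control arm for each named gene reported here, 36 held 1 library whose gap to the next was too wide for the range of the group. The cut-off used is passed by chance in about 1 in 20 groups of 6 values from a single normal distribution. These groups pool bone marrow and spleen, and many of the genes were named for their calls. The rate of 1 in 20 therefore need not hold here, and the 36 cannot be weighed against it. Spleen doxycycline replicate 1 was that library in 23 of them, bone marrow control replicate 3 in 5, bone marrow control replicate 1 in 3, and 5 other libraries in 1 each.

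Spleen doxycycline replicate 1 was the lowest of the doxycycline arm for genes that rose. It had 8.157 CPM of Lmna, 1.101 of Fhdc1, 1.586 of Ypel4, 22.79 of Ypel5, 3.107 of Slc40a1, 106.4 of Tfrc, 10.62 of P4ha1, 1.91 of Ifit1 and 286 of Ctsb. Among red cell genes it had 56.94 CPM of Alas2, 1969 of Hba-a2, 2728 of Hba-a1, 587.6 of Hbb-bs, 15.34 of Epb42, 46.45 of Bpgm and 2.525 of Rhag. It was the highest of the arm for genes that fell, with 8.837 CPM of Cobll1, 61.6 of Aqp8, 13.66 of Ehd2, 21.2 of Tmem158, 38.62 of F2r, 170.8 of Hyou1 and 128.6 of Lmnb2. The direction of these 23 values, seen from the other doxycycline libraries, is toward the controls in each case. Some went past them: those of Tfrc, Rhag and Ifit1 lay below the spleen controls.

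In the doxycycline arm 3 other values stood out. Spleen replicate 3 had 6389 CPM of mt-Cytb, against 2262 to 2858 CPM in the other 5 libraries. Spleen replicate 2 had 40.77 CPM of Itga6 and bone marrow replicate 3 had 69.46 CPM of Hdac3. In the control arm, bone marrow replicate 3 was the highest for Fhdc1 (2.573 CPM), Atp10a (44.16), Tubb1 (81.15), Nkg7 (4.133) and Cdkn1b (91.23). Bone marrow control replicate 1 was the highest for Siglecf (21.06 CPM) and the lowest for B4galt6 (27.54) and Ifit1 (1.001). Bone marrow control replicate 2 was the lowest for Chpf (7.385 CPM), and spleen control replicate 2 for Slc40a1 (0.9423).

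The doxycycline effect differed between tissues, by edgeR's test of the difference with adjustment over all genes, for 23 genes, of which the 6 of smallest p are given as spleen minus bone marrow on the log2 scale. Phf11d differed by 2.882 (adjusted p 2.17e-14 to 0.0895 over 19 alternatives, 14 of them passed) and Dusp1 by 4.421 (2.56e-11 to 0.153, 11 passed). Negative differences were those of Pou4f1 at −2.054 (2.88e-11 to 0.103, 13 passed), Itpr1 at −1.564 (2.88e-11 to 0.104, 10 passed), Sumf1 at −1.073 (3.19e-07 to 0.168, 9 passed) and Maml2 at −2.531 (1.55e-08 to 0.302, 8 passed). Dusp1, a phosphatase gene of MAP kinase feedback, had 21.9, 14.8 and 19.7 CPM in bone marrow doxycycline libraries, against 113, 63.4 and 30.4 CPM in bone marrow controls. In spleen, Dusp1 had 20.7, 34.4 and 25.2 CPM with doxycycline, against 3.98, 5.01 and 4.77 CPM in controls. Spleen doxycycline replicate 1 stood with the other spleen doxycycline libraries for these 6 genes, as for Phf11d, with 16.6, 14 and 9.78 CPM in spleen doxycycline libraries, against 2.32, 2.36 and 2.6 CPM in spleen controls. Choosing by smallest p favours genes whose replicates lie close together, so this likeness follows in part from the choice.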

How the results depend on the processing

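Counts of genes called over both tissues depended on the test and the libraries. DESeq2's Wald test called 2954 genes, 1250 of them lower. Limma-voom called 1050 lower, or 1263 with same-numbered libraries treated as correlated (consensus correlation −0.0664). With quality weights limma-voom called 5454 genes, 2495 higher and 2959 lower. Summing same-numbered libraries gave 1222 calls, 335 lower. Bone marrow libraries alone called 4929 genes, 2418 higher and 2511 lower. Spleen libraries alone called 1 gene, 0 higher and 1 lower, with 1307 genes at an unadjusted p under 0.05, and 913 genes, 429 higher, without doxycycline replicate 1, a choice made after seeing the data. For the difference between tissues, edgeR called 51 genes without a filter, 7 with all 16 libraries in the fit and 3 with the replicate block, DESeq2 387 and limma-voom 39. Leaving out each library in turn gave 1100 to 4390 calls, 760 to 2245 higher and 333 to 2145 lower, the lowest totals with a bone marrow library missing and the highest without spleen doxycycline replicate 1, and 0 to 1914 calls for the difference. Those 0 calls, by edgeR without bone marrow doxycycline replicate 2 or 3 or spleen control replicate 1, 2 or 3, came with 1248, 1536, 1319, 1335 and 1236 genes at an unadjusted p under 0.05. The cause of these shifts was not tested.

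Replicate numbers were not taken to pair the libraries, since the labels do not say that they do. Deviations of same-numbered doxycycline and control libraries correlated at −0.402 to −0.111 in bone marrow and −0.175 to −0.0569 in spleen. Low correlations do not show that libraries are unpaired. Same-numbered bone marrow and spleen libraries, which could share an animal, correlated at −0.154, 0.0347 and 0.154 for doxycycline numbers 1, 2 and 3 and at −0.134, 0.0622 and 0.254 for controls. Number 3 alone was best with its own number, in both arms, and whether tissues came from the same mice is not stated. With the replicate block 1436 genes were called, 910 higher and 526 lower. Of 137 called genes that met the naming rule, 102 kept their call without any 1 of the 12 libraries and 0 changed sign in 28 alternatives. Signs turned in genes that had not passed: mt-Cytb to −0.01824, mt-Co2 to −0.09303 and Mki67 to −0.02474 with bone marrow libraries alone, Gata1 to −0.08981 with spleen libraries alone, and Gata1 to −0.1201 and Gata2 to −0.3589 with spleen libraries alone less doxycycline replicate 1. Leaving out single libraries gave −0.007327 to 0.3819 for mt-Cytb and −0.1592 to 0.2387 for Mki67.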
